A study of Mus musculus with 12 samples.

Results

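The axon guidance and microtubule genes were the 51 measured genes whose symbols mark them as Eph receptors (9), ephrins (8), semaphorins (16), plexins and neuropilin (4), netrin and its Unc5 receptor (2), Dpysl proteins and stathmins (5) or tubulins (7), out of 4605 distinct named genes on the array. They were chosen by symbol alone, from spots with 1 gene symbol, and each was measured by 1 spot. RNA of 2 mouse bone cell lines was hybridised to 12 spotted arrays with 1 dye, in 4 groups of 3 arrays. The osteoblast line 2T3 came from a mouse in which a BMP-2 promoter drives the SV-40 T antigen, and was measured as C0 and as low. The osteocyte line MLO-Y4 came from a mouse in which an osteocalcin promoter drives T antigen, and was measured as high and as low. All groups therefore carry an immortalising T antigen, each cell type is represented by 1 line, and line, promoter and cell type cannot be told apart. C0 was read as the confluent osteoblast state, and high as the denser osteocyte state with gap junctions, only because the other group of each line is called low. The labels number the arrays from 1 to 3 without saying that these were separate cultures, so every p-value below rests on variation among arrays that may be technical only.

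Guidance proteins steer growing cell processes. Ephrins are membrane-bound ligands of the Eph receptor tyrosine kinases, and both sides of the contact can signal. Semaphorins, secreted or membrane-bound, act through plexins, with neuropilins as co-receptors for most of the secreted class, and netrin acts through Dcc and Unc5 receptors. Dpysl proteins, also called CRMPs, carry semaphorin signals to the cytoskeleton and bind tubulin, and stathmins bind tubulin dimers and favour the loss of microtubules. Osteocytes extend long branching processes through the bone matrix, and in bone the same families are known from osteoblast and osteoclast crosstalk, for example ephrin B2 with EphB4 and Sema3a with neuropilin 1.

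Values are deposited spot intensities that were quantile-normalized between arrays, floored at 6.08 normalized units and analysed as log2. They are called levels here, group levels are geometric means, SD and standard errors (SE) are on the log2 scale, and the level of 1 spot was not set against that of another. An array's detection limit was the size of its lowest deposited value. Median deposited intensity ran from 4 to 55 per array. From 37.9% to 74.8% of spots and from 20 to 39 of the 51 members were above the limit on an array. The dimmest array was 2T3 low number 3, with a median of 4 and a mean of 42.2, beside means of 301 and 273 on 2T3 low numbers 1 and 2. On it, the levels of Epha2 (30.3), Sema4c (21.0) and Sema4b (14.1) came from deposited values of 5, 3 and 2. Precision is limited by the 3 arrays in each group. Of the markers fixed for the osteocyte, 5 of 6 measured were higher in MLO-Y4 (Pdpn, Cd44, Capg, Dstn and Ackr3). Phex, below the limit on all 12 arrays, was not called, and Dmp1, Mepe, Sost, Fgf23 and Gja1 were not measured. The list was fixed with earlier results of these data known, so it cannot test the osteocyte label. Of 6 measured osteoblast markers, Col1a2 was lower in MLO-Y4 and the other 5 were not called, so the osteoblast label of 2T3 rested on 1 called marker. Among those 5, Alpl pointed higher in MLO-Y4, at 266 against 63.1 in 2T3 (log2 difference 2.08, SE 0.71, limma adjusted p = 0.111). Bglap, Omd, Pth1r and Ibsp pointed lower. The arrays numbered 1 of 2T3 C0, MLO-Y4 low and MLO-Y4 high stood apart from the other 9 on many members, as described below, and results that rest on them are given with and without them.

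The first comparison asked which of these genes differed between the osteocyte and the osteoblast line over both densities. Of the 51 members, 6 differed. The membrane semaphorins Sema4c (12.8-fold) and Sema4b (4.69-fold) and the receptor Epha2 (7.99-fold) were higher in MLO-Y4. The tubulin Tubb5 (5.68-fold), the secreted semaphorin Sema3a (2.94-fold) and the CRMP Dpysl3 (2.71-fold) were lower. All 6 had no overlap between the 6 MLO-Y4 and the 6 2T3 arrays. The 6 members called were 11.8% of the 51, beside 9.3% of all 5030 spots, by limma's moderated test with Benjamini-Hochberg adjustment over all spots and a threshold of 0.05. The 3 higher members were 5.88%, beside 5.83% of all spots, and the 3 lower members 5.88%, beside 3.48%. Members without overlap were 11.8%, beside 5.84% of all spots, and at an unadjusted p under 0.05 there were 12 members (23.5%, beside 21.1%). The median line difference of the members was -0.12 on the log2 scale, beside -0.03 for all spots, and the median size of a difference was 0.65 for the members and 0.50 for all spots. In RNA of whole cultures, fewer expressing cells and less RNA per cell cannot be told apart.

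**Figure D1:**
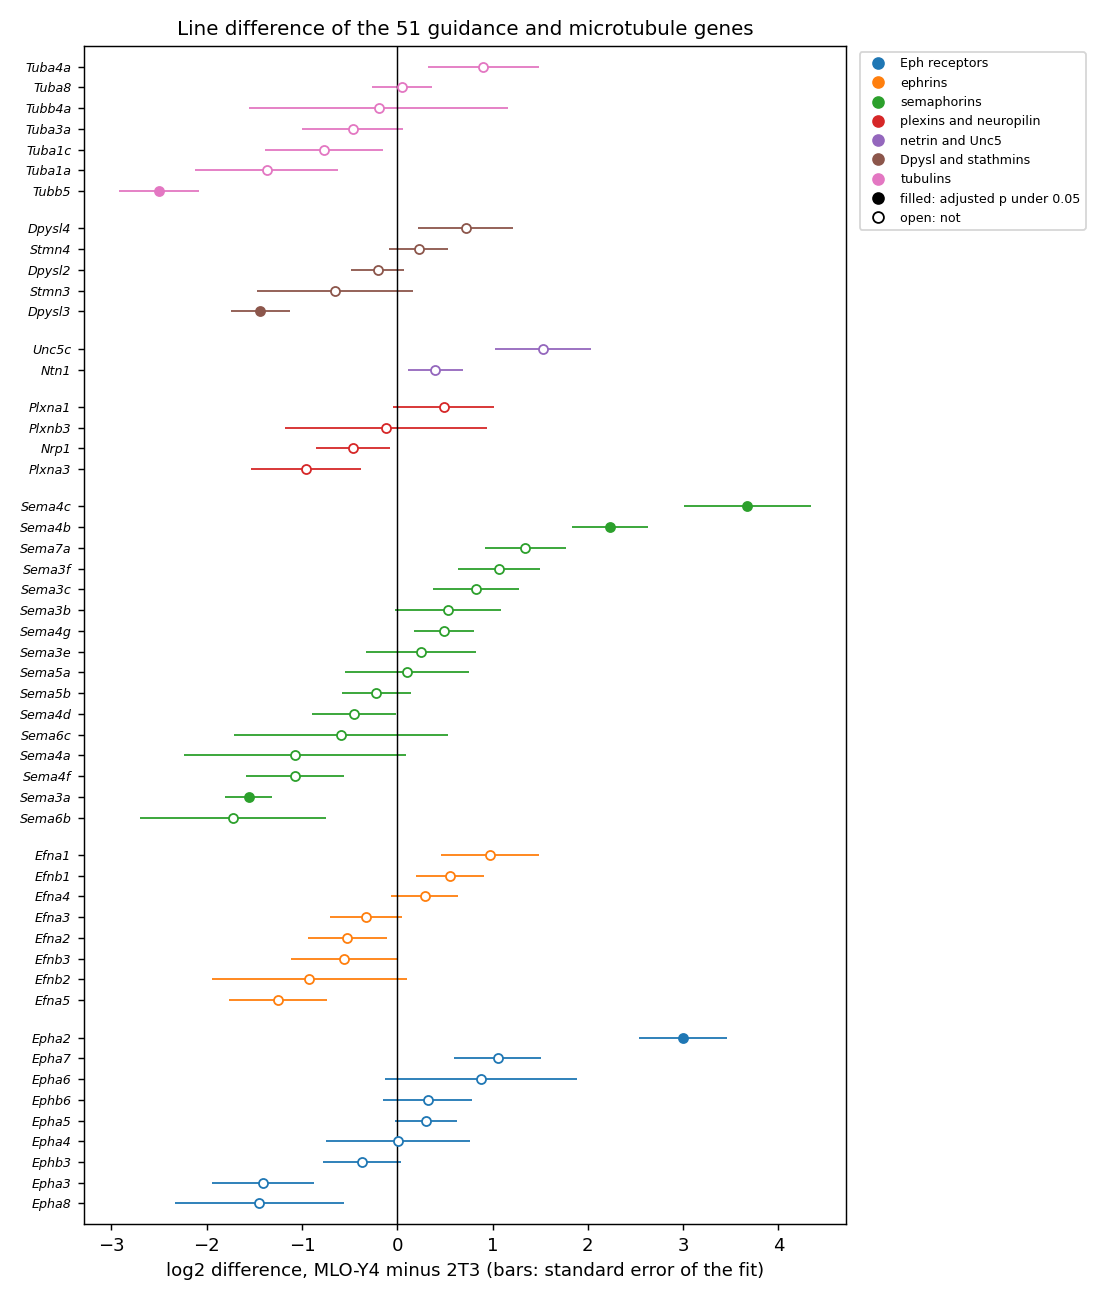
Log2 difference of MLO-Y4 minus 2T3 over both densities for all 51 genes, grouped by family, with the standard error of the fit as bars and filled points for adjusted p under 0.05. The 6 filled points lie from -2.50 (Tubb5) to 3.68 (Sema4c), and in each family that holds one, most members lie nearer to 0.

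Epha2, an Eph receptor tyrosine kinase that binds A-type ephrins, was the only one of the 9 Eph receptors called. Its level was 7.75, 24.8 and 8.25 on the 2T3 C0 arrays numbered 1 to 3, 29.3, 46.4 and 30.3 on 2T3 low, 416, 148 and 88.1 on MLO-Y4 low, and 244, 127 and 102 on MLO-Y4 high. Every MLO-Y4 array lay above every 2T3 array, and the widest step between neighbouring group levels was the one between the lines. Epha2 averaged 160.5 in MLO-Y4 (SD 0.84, n = 6) and 20.1 in 2T3 (SD 1.07, n = 6), a log2 difference of 3.00 (SE 0.46, limma adjusted p = 0.00261). The order of the group levels was MLO-Y4 low (176), MLO-Y4 high (147), 2T3 low (34.6) and 2T3 C0 (11.7). The first pair did not differ beyond the spread (log2 difference -0.26, SE 0.65), and neither did the last after adjustment (limma adjusted p = 0.929). Between same-numbered arrays the line difference of Epha2 was 4.40, 2.01 and 2.59 for numbers 1, 2 and 3. Such values, here and for the genes below, average over both densities and so include 2T3 low, whose numbers were not read as pairs. Without the 3 arrays that stood apart the Epha2 difference was 2.36 (5.12-fold, limma adjusted p = 0.0192). It was 2.23 (4.68-fold) when 16 was added to each value in place of a floor.

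No other Eph receptor passed the test. Epha8 was above the limit on all 6 2T3 arrays, at 47.4, 98.4 and 173 on C0 and 185, 62.5 and 84.2 on low. In MLO-Y4 it was at 58.1 and 96.96 on low numbers 2 and 3 and at 123 and 73.9 on high numbers 2 and 3. On both MLO-Y4 arrays numbered 1 it was at the floor, below their limits of 47.2 and 47.8. The Epha8 groups overlapped apart from those 2 arrays, and its line difference of -1.45 (SE 0.89, limma adjusted p = 0.410) was -0.18 without them. Epha3 was above the limit on 5 of 6 2T3 arrays and no MLO-Y4 array, at least 1.07-fold lower in MLO-Y4 (limma adjusted p = 0.156), and Epha7 on no 2T3 array and 3 MLO-Y4 arrays, at least 1.37-fold higher (limma adjusted p = 0.221). Epha6 and the remaining receptors Epha4, Epha5, Ephb3 and Ephb6 had log2 differences from -0.37 to 0.88.

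Of the 8 ephrins, the ligands of these receptors, none differed between the lines, with log2 differences from -1.25 (Efna5) to 0.98 (Efna1). Efna2, Efna3 and Efnb2 were above the limit on all 12 arrays. Efna2 ran from 27.3 to 121 in 2T3 and from 27.6 to 82.3 in MLO-Y4, so the lines overlapped almost fully. Efna5, a GPI-anchored ligand of the A class, was above the limit on no MLO-Y4 array (log2 difference -1.25, SE 0.52, limma adjusted p = 0.194).

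The semaphorins held 3 of the 6 called members, in both directions. Sema4c, a membrane-bound class 4 semaphorin that binds plexin B2, was at 6.08, 25.2 and 27.7 on 2T3 C0, 71.2, 10.3 and 21.0 on 2T3 low, 89.3, 622 and 304 on MLO-Y4 low, and 122, 366 and 379 on MLO-Y4 high. The lowest MLO-Y4 array lay above the highest 2T3 array, and only 3 of 6 2T3 arrays were above the limit. Sema4c averaged 256 in MLO-Y4 (SD 1.07, n = 6) and 20.1 in 2T3 (SD 1.23, n = 6), a log2 difference of 3.68 (SE 0.67, limma adjusted p = 0.00680). The Sema4c difference between same-numbered arrays was 2.33, 4.88 and 3.82 for numbers 1, 2 and 3. Its parts were 4.32, 3.86 and 3.77 for MLO-Y4 high minus 2T3 C0, and 0.33, 5.91 and 3.86 for MLO-Y4 low minus 2T3 low. The line difference of Sema4c rose to 4.32 (20.03-fold) without the 2 MLO-Y4 arrays numbered 1. It was 2.88 (7.35-fold) with 16 added in place of the floor and 4.44 (21.7-fold) with arrays scaled to equal medians.

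Sema4b, another membrane-bound class 4 semaphorin, was at 29.2, 42.7 and 41.2 on 2T3 C0, 42.7, 24.8 and 14.1 on 2T3 low, 183, 177 and 76.5 on MLO-Y4 low, and 299, 118 and 93.7 on MLO-Y4 high. No MLO-Y4 array came down to the 2T3 range. Sema4b averaged 142 in MLO-Y4 (SD 0.72, n = 6) and 30.3 in 2T3 (SD 0.63, n = 6), a log2 difference of 2.23 (SE 0.40, limma adjusted p = 0.00633). It was 2.73, 2.15 and 1.81 between arrays numbered 1, 2 and 3. Without the 3 arrays that stood apart Sema4b no longer passed (difference 1.78, limma adjusted p = 0.0527), and with equal medians its difference was 2.89 (7.42-fold).

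Sema3a, a secreted repellent of growing axons that signals through neuropilin 1 and A-type plexins, moved the other way. Its level was 369.6, 324 and 216 on 2T3 C0, 341, 260.1 and 338 on 2T3 low, 77.0, 133 and 67.6 on MLO-Y4 low, and 141, 106 and 116 on MLO-Y4 high. All 12 arrays were above the limit and the arrays within a line lay close together. Sema3a averaged 103 in MLO-Y4 (SD 0.43, n = 6) and 303 in 2T3 (SD 0.29, n = 6), a log2 difference of -1.56 (SE 0.25, limma adjusted p = 0.00322), and of -1.77, -1.29 and -1.61 between arrays numbered 1, 2 and 3. With arrays scaled to equal medians the Sema3a difference was -0.83 and did not pass (limma adjusted p = 0.220). That scaling moved the median difference of the 1253 spots above the limit on all 12 arrays to 0.79, from 0.04 after quantile normalization.

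The other 13 semaphorins did not pass. Sema6b had a large difference without a call, -1.72 (SE 0.98, limma adjusted p = 0.373). It was at 11.6, 292 and 130 on 2T3 C0, 189, 319 and 137 on 2T3 low, 19.2, 116 and 6.33 on MLO-Y4 low, and 16.2, 195 and 62.4 on MLO-Y4 high. The Sema6b groups overlapped, and it was above the limit on only 5 of 6 2T3 and 3 of 6 MLO-Y4 arrays. On the 2T3 C0 array numbered 1 it was below the limit of 12.6. Without that array the difference was -2.40 (5.28-fold, limma adjusted p = 0.136), and over 22 alternatives it ran from -2.40 to -1.18. Sema7a, a GPI-anchored semaphorin that signals through integrin and plexin C1, had a difference of 1.35 (limma adjusted p = 0.0858), but only 1 2T3 and 3 MLO-Y4 arrays were above the limit. Sema3f, a secreted ligand of neuropilin 2, was above the limit on all 12 arrays, with 55.6 to 165 in 2T3 and 105 to 385 in MLO-Y4 (difference 1.07, SE 0.43, limma adjusted p = 0.184). The Sema3f lines overlapped, and with the replicate number as a block over all 12 arrays it passed (limma adjusted p = 0.0213). That block includes 2T3 low, whose numbers were not read as pairs. Sema4g was above the limit on no array.

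**Figure D2:**
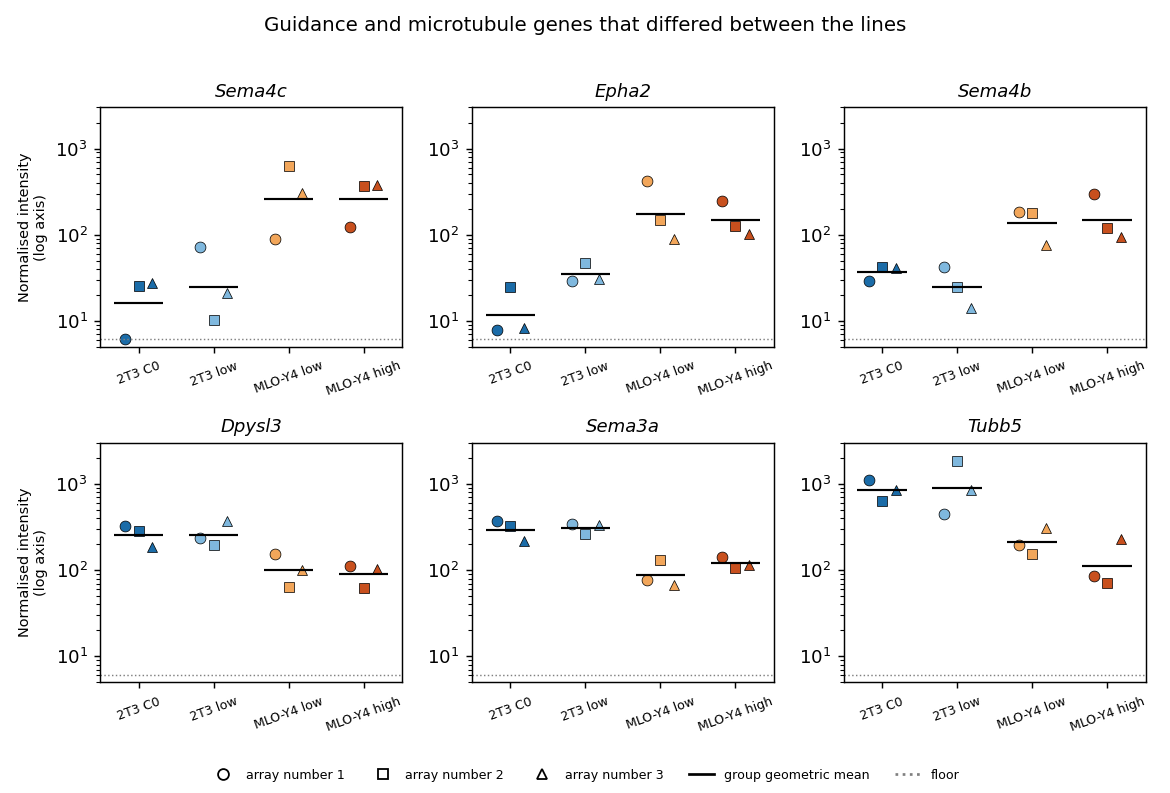
Normalized intensity on a log axis for the 6 genes called between the lines, with 1 point per array, its shape giving the array number, and the group geometric mean as a bar. In each panel the 6 MLO-Y4 points and the 6 2T3 points do not overlap, as for Sema3a, with 67.6 to 141 in MLO-Y4 and 216 to 369.6 in 2T3.

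Neither the semaphorin receptors nor the netrin genes passed the test. Plxna1, a co-receptor of Sema3a, was above the limit on all 12 arrays and averaged 231 in 2T3 and 324 in MLO-Y4 (difference 0.49, SE 0.53). Plxna3, Plxnb3 and Nrp1 had differences of -0.96, -0.12 and -0.46. Nrp1 passed without the 3 arrays that stood apart (-1.11, limma adjusted p = 0.0189) and without the 4 arrays numbered 1 (-1.07, limma adjusted p = 0.0295). Unc5c, a repulsive netrin receptor, was at 67.5, 43.2 and 46.6 on 2T3 C0, 31.8, 33.8 and 53.3 on 2T3 low, 98.2, 272 and 144 on MLO-Y4 low, and 30.8, 274 and 138 on MLO-Y4 high. A single MLO-Y4 array, high number 1, did not lie above the 2T3 range. Unc5c was below the limit of 47.8 there, so its rank among the 2T3 values is not known. The Unc5c difference of 1.53 (SE 0.51, limma adjusted p = 0.100) was 1.97 without that array and then passed (limma adjusted p = 0.00912). Ntn1, the netrin ligand, was below the limit on every MLO-Y4 array and had a difference of 0.40.

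Of the 5 Dpysl proteins and stathmins, Dpysl3 alone was called. This CRMP, known from growing neurites and from actin bundling, was at 327, 286 and 184 on 2T3 C0, 235, 194 and 369 on 2T3 low, 154, 64.6 and 101 on MLO-Y4 low, and 112, 62.2 and 104 on MLO-Y4 high. The highest MLO-Y4 array stayed below the lowest 2T3 array. Dpysl3 averaged 94.9 in MLO-Y4 (SD 0.50, n = 6) and 257 in 2T3 (SD 0.41, n = 6), a log2 difference of -1.44 (SE 0.31, limma adjusted p = 0.0154). The Dpysl3 call ended with equal medians (difference -0.75, limma adjusted p = 0.413) and without the 4 arrays numbered 1 (limma adjusted p = 0.0582). Dpysl2, the CRMP that binds tubulin dimers and promotes axon growth, was also above the limit on all 12 arrays, but with a difference of -0.20 (SE 0.28, limma adjusted p = 0.757). Dpysl4, Stmn3 and Stmn4 were near the floor on most arrays.

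Among the 7 tubulins, the subunits of the microtubule, Tubb5, a broadly expressed beta-tubulin, was called. It was at 1109.9, 635 and 859 on 2T3 C0, 453, 1833 and 851 on 2T3 low, 198, 153 and 306 on MLO-Y4 low, and 85.2, 71.2 and 228 on MLO-Y4 high. The lowest 2T3 array lay above the highest MLO-Y4 array. Tubb5 averaged 153 in MLO-Y4 (SD 0.82, n = 6) and 868 in 2T3 (SD 0.69, n = 6), a log2 difference of -2.50 (SE 0.42, limma adjusted p = 0.00427), with -2.45, -3.37 and -1.70 between arrays numbered 1, 2 and 3. Without the 3 arrays that stood apart the difference was -2.29 (limma adjusted p = 0.0635), and with equal medians it was -1.75 (3.36-fold). The other 6 tubulins did not pass. Tuba8 differed by 0.05 (SE 0.31) and Tuba1a, a major alpha-tubulin of neurons, by -1.37 (SE 0.75), with 91.2 to 1413 in 2T3 and 35.9 to 290.2 in MLO-Y4. Tubulin genes are close in sequence, and the probe sequences were not used here, so the signal of 1 tubulin spot may include its relatives.

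Of the 51 members, 42 had a promoter in the RefSeq table of build GRCm38.p6. The 250 bases before the annotated start are shown for the 3 higher genes and for Sema3a and Tubb5 of the lower ones, to set them side by side, with matches to the GC box GGGCGG (either strand) in capitals. Epha2 lies on chromosome 4 (chr4:141300971-141301220, plus strand), Sema4b on chromosome 7 (chr7:80186620-80186869, plus strand), Sema4c on chromosome 1 (chr1:36558382-36558631, minus strand), Sema3a on chromosome 5 (chr5:13396534-13396783, plus strand) and Tubb5 on chromosome 17 (chr17:35838302-35838551, minus strand). For Sema4b and Sema4c the first of 2 windows is shown, and that of Dpysl3 was not used here.
Epha2: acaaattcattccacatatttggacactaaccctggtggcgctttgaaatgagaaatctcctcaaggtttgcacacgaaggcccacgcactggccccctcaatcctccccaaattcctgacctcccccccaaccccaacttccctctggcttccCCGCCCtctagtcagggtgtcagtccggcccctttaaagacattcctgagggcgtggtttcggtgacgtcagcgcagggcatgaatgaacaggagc
Sema4b: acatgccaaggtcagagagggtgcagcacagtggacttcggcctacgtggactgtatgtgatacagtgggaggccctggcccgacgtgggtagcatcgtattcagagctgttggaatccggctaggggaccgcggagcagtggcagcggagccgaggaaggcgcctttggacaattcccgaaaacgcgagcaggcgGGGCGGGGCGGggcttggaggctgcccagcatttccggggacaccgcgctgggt
Sema4c: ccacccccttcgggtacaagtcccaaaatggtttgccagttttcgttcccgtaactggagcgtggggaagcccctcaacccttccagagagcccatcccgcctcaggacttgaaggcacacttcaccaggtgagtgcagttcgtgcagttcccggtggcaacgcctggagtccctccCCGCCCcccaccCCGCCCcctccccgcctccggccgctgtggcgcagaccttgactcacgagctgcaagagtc
Sema3a: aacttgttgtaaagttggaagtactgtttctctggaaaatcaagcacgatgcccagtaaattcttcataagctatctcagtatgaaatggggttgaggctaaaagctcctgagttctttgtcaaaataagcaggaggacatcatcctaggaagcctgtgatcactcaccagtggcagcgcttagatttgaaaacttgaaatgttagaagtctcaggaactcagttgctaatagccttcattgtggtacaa
Tubb5: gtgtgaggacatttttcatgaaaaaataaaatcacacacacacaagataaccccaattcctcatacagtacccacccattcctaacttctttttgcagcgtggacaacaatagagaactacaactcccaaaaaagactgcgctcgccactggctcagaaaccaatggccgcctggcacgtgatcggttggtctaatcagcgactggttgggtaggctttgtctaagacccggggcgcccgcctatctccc
The Epha2 window held 1 GC box and the Sema4b and Sema4c windows 2 each, those of Sema4b sharing 1 base. The Sema3a and Tubb5 windows held none. Of all 32851 windows of this length, 32.7% held at least 1 GC box. The windows were 55.6% (Epha2), 64.4% (Sema4b), 64.4% (Sema4c), 40.8% (Sema3a) and 49.2% (Tubb5) G and C, beside a median of 52.4%. Tubb5 held 2 matches to CCAAT (33.8% of all windows held one) and 1 to the E box CACGTG (6.02%), and none of the 5 windows held TATAAA (12.4%). All motifs were searched on both strands. The matches are letters in a window and say nothing about a factor.

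The lines were also compared as low against low and as MLO-Y4 high against 2T3 C0 (the denser state), with 3 arrays a side. The labels do not say that density was equal between the lines in either comparison. At low density 2 of 51 members were called (3.92%, beside 3.94% of all spots). Sema3a was lower in MLO-Y4 by a log2 difference of -1.81 (SE 0.35, limma adjusted p = 0.0174) and Sema4b higher by 2.46 (SE 0.57, limma adjusted p = 0.0402). In the denser state 2 of 51 were called (3.92%, beside 3.36% of all spots). Epha2 was higher in MLO-Y4 by 3.65 (12.6-fold, SE 0.65, limma adjusted p = 0.0122) and Tubb5 lower by -2.93 (SE 0.59, limma adjusted p = 0.0242). These calls did not hold in every alternative. That of Sema4b ended when any 1 of the 2T3 C0 arrays was left out (limma adjusted p = 0.0510 to 0.0679). Those arrays are not in its comparison, and its difference stayed at 2.46. With 16 added the Epha2 difference was 2.51 (5.71-fold). Without the 3 arrays that stood apart it was 2.99 (7.96-fold, limma adjusted p = 0.0648) and that of Tubb5 -2.54 (limma adjusted p = 0.238), and at low density that of Sema3a was -1.71 (limma adjusted p = 0.0598) and that of Sema4b 2.24 (limma adjusted p = 0.0959), so all 4 calls ended. Nrp1 was then called in the denser state and Sema4c and Unc5c at low density. Sema3a passed in 14 of 22 alternatives, Sema4b in 8 of 22, Epha2 in 18 of 23 and Tubb5 in 14 of 23. At low density no member was called without 2T3 low number 3 or without MLO-Y4 low number 1, and in the denser state none without 2T3 C0 number 1, 2T3 C0 number 3 or MLO-Y4 high number 1. Groups did not overlap for 12 members at low density (23.5%, beside 18.9% of all spots) and for 9 in the denser state (17.6%, beside 16.6%). Sema4c narrowly missed in the denser state (3.99, limma adjusted p = 0.0518). The replicate number was also used as a block over 2T3 C0 and both MLO-Y4 groups, whose numbers were read as pairs. Sema4c then passed (limma adjusted p = 0.00443) beside Epha2 and Tubb5, and 299 spots were called in place of 169. Across the 51 members, the line differences at the 2 densities, which share no array, had Pearson's r of 0.669 and Spearman's rho of 0.606, and 35 of 51 had the same sign (68.6%). Over all 5030 spots the values were 0.691, 0.549 and 65.3%. These are descriptions across genes, and same-numbered arrays of both densities are part of both axes.

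The density comparisons asked whether these genes changed with culture density in each line. No member was called in 2T3 or in MLO-Y4, and no spot of all 5030 (0%) was called either, by limma with adjusted p under 0.05. At an unadjusted p under 0.05 there were 2 members in 2T3 (3.92%, beside 5.29% of all spots) and 0 in MLO-Y4 (beside 2.31%). In 2T3 these were Efnb1, a transmembrane ephrin, and Epha2. Efnb1 was at 186, 89.5 and 71.0 on C0 and at 59.9, 32.8 and 21.0 on low, without overlap (log2 difference 1.61, SE 0.51, limma adjusted p = 0.929). In MLO-Y4 its values overlapped, at 71.4, 56.4 and 99.1 on high and 115, 73.2 and 146 on low, but it was lower on high in each same-numbered pair. Epha2 was lower on C0 than on low on every array (log2 difference -1.57, SE 0.65, limma adjusted p = 0.929), and 1 of its 3 C0 values was below the limit. Groups did not overlap for 4 members in 2T3 (7.84%, beside 9.05% of all spots) and for 4 in MLO-Y4 (7.84%, beside 4.51%). Since the numbers were read as pairing MLO-Y4 low and high, the comparison was also made within pairs. Of the 51 members 4 were higher and 6 lower on high in all 3 pairs, together 19.6%, beside 19.6% of all spots. With the number as a block within MLO-Y4, 4 members had an unadjusted p under 0.05 (7.84%, beside 5.07% of all spots): Nrp1 (-1.0003, SE 0.17), Tubb5 (-0.92, SE 0.25), Efna3 (0.62, SE 0.18) and Efnb1 (-0.54, SE 0.17). No member or spot was called (limma adjusted p = 0.804 for each of the 4).

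The difference between the 2 density effects was called for 0 members and 0 of 5030 spots (0%) by limma. At an unadjusted p under 0.05 it held 2 members (3.92%, beside 2.88%), Efnb1 (-2.16, SE 0.72) and Nrp1 (-2.09, SE 0.77), both with a limma adjusted p of 1.00. Nrp1, the co-receptor of secreted semaphorins, was at 16.6, 39.8 and 30.8 on 2T3 C0, 14.4, 10.3 and 14.1 on 2T3 low, 35.5, 14.5 and 13.8 on MLO-Y4 low, and 19.2, 7.58 and 6.08 on MLO-Y4 high. Its values lay near the limit on most arrays, and above it on no MLO-Y4 high array. Across the 51 members the density differences of the 2 lines, which share no array, had r = -0.13, beside 0.03 over all spots.

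**Figure D3:**
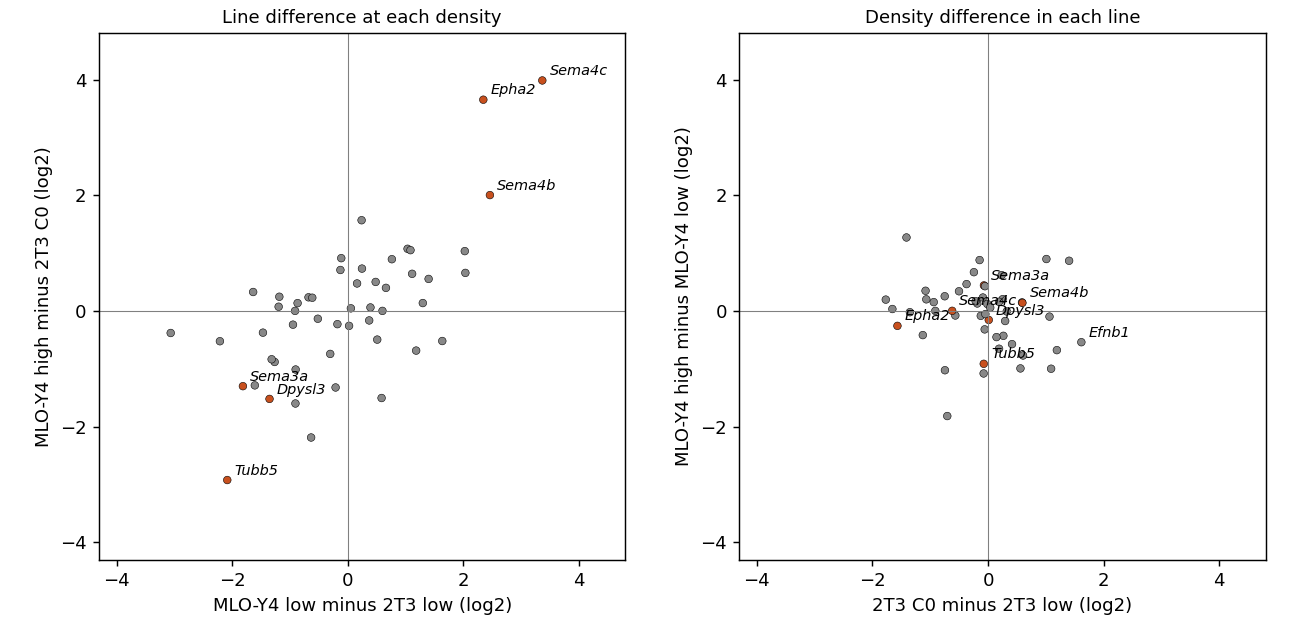
Each point is 1 of the 51 genes, with log2 differences on all axes. On the left, the line difference in the denser state is plotted against that at low density, with the 6 called genes in orange. These were called on the mean of the 2 axes, so their distance from 0 was set by that choice. On the right, the density difference in MLO-Y4 is plotted against that in 2T3. Most points there lie within 2 log2 units of 0 and show no diagonal (r = -0.13).

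The main axis of variation among the members followed none of the 4 groups. On the first principal component of the 51 members, which held 37.8% of their variance, the 2T3 C0, MLO-Y4 low and MLO-Y4 high arrays numbered 1 lay at -8.26, -8.26 and -9.44 and the other 9 from 1.55 to 5.43. The second component (23.8%) parted the lines, with 2T3 from -5.98 to -1.76 and MLO-Y4 from 1.58 to 5.28. On those 3 arrays 7 members were lower than on all other 9 (13.7%, beside 6.26% of all spots) and 1, Sema5a, was higher (1.96%, beside 2.98%). The 7 came from 5 families, and were Tubb4a, Sema6c, Efnb2, Sema4a, Plxnb3, Epha8 and Tuba3a. For Sema4a and Plxnb3 the order is not certain. Both were below the limits of 47.2 and 47.8 on the MLO-Y4 arrays numbered 1, while the other 9 arrays went down to 10.4 and 39.4.

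Efnb2, the transmembrane ephrin that pairs with EphB4 in bone, was at 98.4, 66.5 and 75.4 on the 3 arrays and from 648 to 1815 on the others, in both lines. It was above the limit on all 12 arrays. Sema6c was at 28.4, 72.2 and 16.2 on the 3 and from 332 to 704 on the others, and Tubb4a, a beta-tubulin of the nervous system, at the floor on the 3 and from 90.2 to 309 on the others. The gap between the 3 arrays and the rest was wider for these genes than any difference between their groups. Of 8 measured neuron markers none was called between the lines, and their summed level ran from 893.5 to 5312 in 2T3 C0, 2419 to 3918 in 2T3 low, 909 to 3679 in MLO-Y4 low and 939 to 6062 in MLO-Y4 high. Snap25 was below the limit on all 12 arrays, while Uchl1 was above it on all 12, Nefm on 10 and Eno2 on 9. On the MLO-Y4 low and high arrays numbered 1, 38.1% and 37.9% of spots were above the limit, which lay at 47.2 and 47.8 normalized units. On 2T3 C0 number 1 it was 62.3% of spots, with the limit at 12.6. A level at the floor on these arrays shows only that the spot was below that limit. What sets the 3 arrays apart was not tested.

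**Figure D4:**
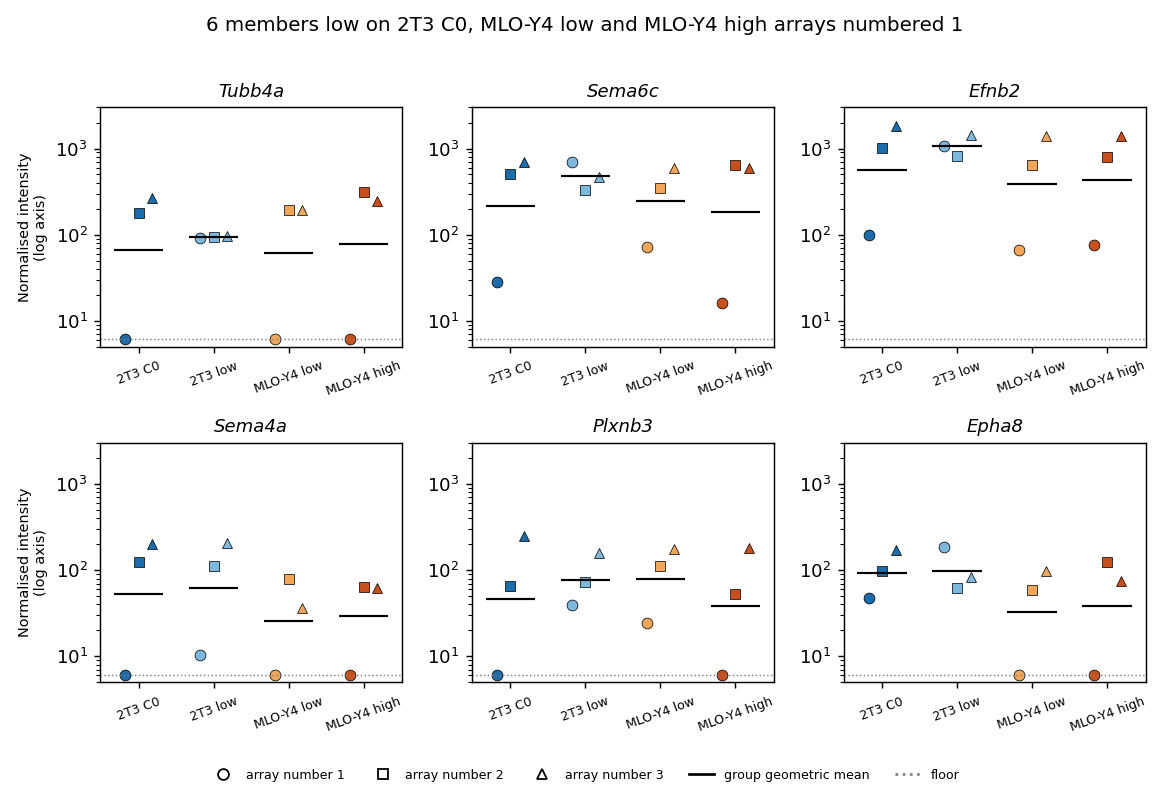
Normalized intensity on a log axis for 6 of the 7 genes that were low on the 3 arrays numbered 1, with 1 point per array, its shape giving the array number, and the group geometric mean as a bar. The circles of 2T3 C0, MLO-Y4 low and MLO-Y4 high lie below all other points in each panel, as for Efnb2 (66.5 to 98.4 against 648 to 1815).

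The 95 listed guidance effectors include ligands, receptors and adhesion proteins as well as proteins that carry signals to the cytoskeleton. Of them 50 genes on 51 spots were measured, with 3 higher and 5 lower in MLO-Y4 by limma and a median log2 difference of -0.14. Of all spots 5.83% were higher and 3.48% lower. Of 116 listed microtubule regulators 51 were measured, with 1 higher and 3 lower and a median of -0.15. Vegfa, an endothelial growth factor that also binds neuropilin 1, was higher in MLO-Y4, at 1194 to 4226 against 65.4 to 252.5 in 2T3 (15.05-fold, limma adjusted p = 0.000171), and Adam23, a membrane protein of the disintegrin family, at 263 to 1054 against 6.08 to 33.9 (44.7-fold, limma adjusted p = 2.63e-05). With equal medians Vegfa was 26.2-fold and Adam23 74.5-fold higher, and with 16 added Adam23 was 19.3-fold higher. Mapt, the microtubule-binding protein tau, was above the limit on 5 MLO-Y4 arrays and no 2T3 array, at least 2.66-fold higher by the limits of the 2T3 arrays (limma adjusted p = 0.00417). The fitted fold of Mapt was 1.99 with the floor at the 40th percentile and 2.17 with 16 added, and without the 4 arrays numbered 1 it was not called (limma adjusted p = 0.0785). The tyrosine kinase Fes, known to act downstream of semaphorins, was above the limit on 4 MLO-Y4 and no 2T3 array, at least 2.01-fold higher (limma adjusted p = 0.0303), and passed in 8 of 22 alternatives.

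On the lower side, Mag, a myelin protein that inhibits axon growth, was at 6.08 to 84.9 in MLO-Y4 and 335 to 652 in 2T3 (limma adjusted p = 0.00219). Evl, an Ena/VASP protein that promotes actin filament growth, was at 6.08 to 47.8 and 165 to 447 (limma adjusted p = 0.00232). Neither Mag nor Evl overlapped between the lines. Without the 3 arrays that stood apart Mag was 13.2-fold lower in place of 23.9-fold, and with 16 added Mag was 12.9-fold and Evl 8.55-fold lower, in place of 16.3-fold for Evl. Dctn6, a subunit of dynactin, a partner complex of the microtubule motor dynein, was at 90.2 to 232 and 233 to 678 (2.71-fold lower, limma adjusted p = 0.0192). It lost its call with equal medians (limma adjusted p = 0.413). Marcks, a substrate of protein kinase C at the membrane (9.55-fold lower, limma adjusted p = 0.0246), and Kif20a, a mitotic kinesin (5.29-fold lower, limma adjusted p = 0.0254), passed in 12 and 11 of 22 alternatives, and without the 3 arrays that stood apart their adjusted p was 0.186 and 0.199. In neither list was a gene called between densities, beside 0% of all spots.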

How the data were processed

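Total RNA was hybridised to 12 spotted arrays with 1 dye and 5030 spots each. Per the deposited values, the authors subtracted a background from linear spot intensity (whole numbers from -23 to 53055) and no scaling between arrays is visible; the sources used here do not name image software or probe design. A platform annotation gave 1 symbol for 4633 spots, updated by Entrez identifier for 4624; 5 spots had several symbols and 392 were unnamed here. From these deposited intensities, arrays were quantile-normalized, since background sets the medians of dim arrays, values were floored at the 25th percentile, log2 was taken, and 4 group means were fitted with limma 3.58.1 in R 4.3.3 (lmFit, eBayes, 8 residual degrees of freedom, two-sided). P-values were adjusted over 5030 spots by Benjamini-Hochberg in each of 6 comparisons, with a threshold of 0.05. The fit was tested on simulated data.

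Where no array of a line had a spot above its limit, the fold is a bound against the limits, given as "at least". Members and gene lists were chosen with earlier results of these data known. All 12 values are given for members called in a comparison, for Epha2 and for the 8 largest line differences among members above the limit on all 3 arrays of a group. Over both pathway lists, up to 5 called genes a direction are named by smallest p. A few other members, such as Sema3f, Efnb2 and Nrp1, were named after their values were seen. Marker lists covered osteoblast, osteocyte, neuron, endothelium, macrophage and osteoclast, and muscle. The endothelial (5 measured) and muscle (3) markers had no call between the lines, and of 7 macrophage and osteoclast markers Csf1r was higher and Tyrobp lower in MLO-Y4.

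Same-numbered arrays deviated together across spots. Their correlations ran from 0.475 to 0.625 between MLO-Y4 low and high and from 0.276 to 0.526 between 2T3 C0 and MLO-Y4. Different-numbered arrays reached 0.122 between MLO-Y4 low and high and 0.273 between 2T3 C0 and MLO-Y4, close to the lowest same-numbered value. The numbers were read as pairing these 3 groups, which the labels do not state. For same-numbered arrays of 2T3 low and another group the correlations ran from -0.11 to 0.16, so its numbers were not read as pairs. Alternatives covered scaling, floor, dim spots, the spread's trend, the block, single arrays and, chosen after seeing the data, arrays that stood apart.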

Additional observations from a re-analysis of the deposited data

How the results depend on the processing

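Between the lines over both densities, the number of members called stayed from 6 to 8 in every alternative. With the replicate number as a block over all 12 arrays (replicate block) it was 8, which added Epha6 (limma adjusted p = 0.0334) and Sema3f (limma adjusted p = 0.0213) and ended none of the 6 calls. The replicate block includes 2T3 low, whose numbers were not read as pairs, so the 2 added calls rest partly on an arbitrary pairing. Epha2 and Sema4c passed in all 22 alternatives, Sema3a and Sema4b in 21 and Dpysl3 and Tubb5 in 20, and none of these reversed. Called over all spots, the higher share was 62.6%, beside 81.5% with equal medians (508 spots; members 5 higher, 1 lower) and 42.2% with detected-spot scaling (552 spots; members 3 higher, 5 lower), which scales by spots above the limit on all arrays. The median difference of all spots was -0.03, 0.11 and -0.43 under the 3 scalings. At low density 2 members were called, and 1 with equal medians, with detected-spot scaling, with only spots above the limit on at least 3 arrays, with a trend of the spread, without both MLO-Y4 arrays numbered 1 and without the 4 arrays numbered 1. With equal medians and without the 4 arrays that 1 was Sema4c, and without both MLO-Y4 arrays it was Unc5c, so Sema3a and Sema4b were both lost. In the denser state 2 were called, 4 with detected-spot scaling and 1 without the 3 arrays numbered 1 that stood apart, which was Nrp1. With the block over the 3 groups read as paired 3 were called, and 299 spots in place of 169. Without 2T3 low number 3 or MLO-Y4 low number 1, 117 and 121 spots were called at low density in place of 198. In the denser state it was 104 and 107 without 2T3 C0 number 2 or 3 and 107 without MLO-Y4 high number 3. The block changed no other count of members. Leaving out 1 array at a time gave 0 to 3 calls at each density, 6 to 8 over both and 0 for each density effect and their difference. With the floor at the 40th percentile 3 spots, none of them a member, were called between 2T3 C0 and low. Of the 42 members other than the 6 called over both densities, Epha8, Sema6b and Unc5c, 23 changed sign in at least 1 of 22 alternatives. The detection limit bounds what can be seen, since only 13 of 51 members exceeded it on all 12 arrays and 9 exceeded it on no MLO-Y4 array. The causes of these changes were not tested.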

Other observations

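Members that missed the threshold between the lines passed it in some alternatives. Unc5c, the netrin receptor, passed in 5 of 22, with log2 differences from 1.97 to 2.24 among them. Efna5 passed without 2T3 C0 number 1 (-1.67, limma adjusted p = 0.0338), Epha3 without 2T3 low number 1 (-1.82, limma adjusted p = 0.0339) and Epha7 without both MLO-Y4 arrays numbered 1 (1.64, limma adjusted p = 0.0180). Sema7a passed without 2T3 C0 number 1 (1.63, limma adjusted p = 0.0271), and Sema3c, a secreted semaphorin above the limit on all 12 arrays, without 2T3 low number 1 (1.23, limma adjusted p = 0.0334).

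Stmn3, a neuronal stathmin, stood at 240.5 on 2T3 low number 1 and at the floor on the other 5 2T3 arrays. Sema4d was likewise at 40.5 on that array and at the floor on all other 11. Tuba1a was at 1413 and 1066 on 2T3 low numbers 2 and 3 and at 91.2 on number 1.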
